A study of Mus musculus with 12 samples.

Results

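The Hox genes of mouse colonoids and the antisense transcripts that lie among them were taken as every row of the deposited table whose gene name began with Hoxa, Hoxb, Hoxc or Hoxd followed by a number, together with the long noncoding RNAs Hotairm1, Hottip and Hotair. The rule found 47 of 54532 rows, of which 40 were protein coding and 7 noncoding, and Hoxd4 was listed in 2 of them. The family itself was selected on measured values, since it was put forward with its differences between the colonoids of the 2 genotypes already known, Hoxb13 among the largest. Differences between genotypes are therefore given below as a description without a test, and tests are kept for the response to hemin and for the difference in that response between genotypes. Colonoids are organoids grown from colonic epithelial stem cells, here of mice 8 to 12 weeks old, in medium conditioned by L-WRN cells. Controls carried the floxed Hmox1 allele (Hmox1 fl/fl), and the other colonoids were labelled Hmox1 KO with Vil1 Cre, in which the villin promoter drives the recombinase in intestinal epithelium. The label of replicate 3 of the hemin-treated KO group named Hmox1 fl/fl with Vil1 Cre instead, and the library was kept in that group by its title. Each genotype received vehicle or 200 µM hemin, the oxidized form of heme, for 24 hours, with 3 libraries of poly(A) RNA in each of the 4 groups. The sources do not say that replicates came from separate animals or cultures, so that p-values measure the spread between these libraries alone, which may be technical.

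Hox genes encode homeodomain transcription factors that tell cells where they lie along the axis from head to tail. Each of the 4 clusters holds its genes in the order of their paralog number, low numbers at the anterior end and high numbers at the posterior end, and genes of the same number in different clusters descend from the same ancestral gene. In the gut the pattern persists in the adult epithelium, where Hoxa13, Hoxb13 and Hoxd13 of paralog group 13 are known for the hindgut and the distal colon, and genes of lower number for more anterior segments. Antisense and intergenic transcripts run among them: Hottip starts beside Hoxa13 and is known to keep the 5′ end of Hoxa active, Hotairm1 lies at the anterior end of Hoxa, and Hotair lies in Hoxc. Several microRNA genes sit between the coding genes, among them Mir196a-1 between Hoxb9 and Hoxb13 and Mir10a near Hoxb4.

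Hox genes share most of the DNA that encodes part of their DNA-binding helix, whatever their level. Hoxc13, which had no fragments, shares it too, so the likeness is not read as a feature of abundant members. Below are the last 60 bases of the homeobox, taken by position from GENCODE M21 transcripts on GRCm38, with the 18 bases of the third helix that start at its invariant tryptophan in capitals. They are shown for the 3 paralogs of group 13 that had fragments, since Hoxc13 had none, and for Hoxb9 and Hoxb6, the 2 most abundant members in control colonoids given vehicle. Hoxb13 lay at chr11:96196140-96196199 (plus strand), Hoxa13 at chr6:52258928-52258987 (minus strand), Hoxd13 at chr2:74670050-74670109 (plus strand), Hoxb9 at chr11:96274779-96274838 (plus strand) and Hoxb6 at chr11:96300809-96300868 (plus strand).
Hoxb13: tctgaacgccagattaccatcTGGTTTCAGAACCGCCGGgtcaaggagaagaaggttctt
Hoxa13: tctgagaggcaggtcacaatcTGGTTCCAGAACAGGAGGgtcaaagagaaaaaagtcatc
Hoxd13: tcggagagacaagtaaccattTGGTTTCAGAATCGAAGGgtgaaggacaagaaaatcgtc
Hoxb9: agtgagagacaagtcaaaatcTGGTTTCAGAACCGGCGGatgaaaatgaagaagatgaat
Hoxb6: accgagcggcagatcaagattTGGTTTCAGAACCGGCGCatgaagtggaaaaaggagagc
Over the whole homeobox, Hoxb13 was identical to Hoxa13 at 68.9% of bases and to Hoxd13 at 67.2%, and Hoxa13 was identical to Hoxd13 at 73.9%. Among the 39 homeoboxes found, pairs of the same paralog number were identical at 67.2% to 93.9% of bases (median 80.6%, 42 pairs) and other pairs at 46.1% to 88.9% (median 60.6%, 699 pairs). The longest exact run shared by members of different clusters was 52 bases, between Hoxa6 and Hoxb4, and 103 such pairs shared a run of at least 20 bases. Members Hoxd3 and Hoxd4 share exons on the same strand, and how their fragments were divided is uncertain.

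The microRNA of the Hoxb cluster and its match in Hoxb8 are shown because the transcript levels of both are given below. The mature mmu-miR-196a-5p (RefSeq, GRCm38.p6, chr11:96265187-96265208) is printed with its seed, bases 2 to 8, in capitals. The stretch of Hoxb8 lies after the stop codon at chr11:96284888-96284909 on the plus strand, with the bases that pair with the microRNA in capitals.
mmu-miR-196a-5p: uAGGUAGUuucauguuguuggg
Hoxb8: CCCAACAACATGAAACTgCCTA
The stretch paired at 21 of 22 bases, and the next best match after the stop codon of a coding member was in Hoxd8, at 15 of 22. The 7 letters complementary to the seed, ACTACCT, stood after the stop codon in 8 of 39 coding members, against 6.06% of 21022 genes.

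Promoter sequence, 250 bases before to 50 after the start of transcription (RefSeq, GRCm38.p6), was found for 26 members with 28 promoters. The median promoter of the members had 57.7% GC and 14.5 CpG, against 52.7% and 7.0 over all 32851 promoters. Both strands were searched for TTTATNG, the letters that caudal factors prefer, which stood in 10.9% of all promoters and in 3 of the members (Hoxb8, Hoxd4 and Hottip). CCAATAAA, a form that HOX13 proteins prefer and that overlaps the first motif read on the other strand, stood in 1.12% of all promoters and in Hoxd4 and Hottip. The letters TATAAA stood in 13.6% of all promoters and in 5 members. Hoxb8 (chr11:96281655-96281954) and Hottip (chr6:52262525-52262824), both on the plus strand, are printed with these letters in capitals because they were the 2 members with a mean of at least 1 FPKM that held TTTATNG. It occurs 3 times in Hoxb8, where TATAAA on the other strand overlaps 2 of the 3, and 1 time in Hottip.
Hoxb8: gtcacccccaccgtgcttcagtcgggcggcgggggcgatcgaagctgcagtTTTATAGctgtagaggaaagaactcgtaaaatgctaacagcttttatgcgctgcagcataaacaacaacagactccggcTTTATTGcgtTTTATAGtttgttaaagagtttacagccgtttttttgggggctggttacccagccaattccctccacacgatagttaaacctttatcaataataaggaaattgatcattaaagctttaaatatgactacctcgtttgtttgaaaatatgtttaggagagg
Hottip: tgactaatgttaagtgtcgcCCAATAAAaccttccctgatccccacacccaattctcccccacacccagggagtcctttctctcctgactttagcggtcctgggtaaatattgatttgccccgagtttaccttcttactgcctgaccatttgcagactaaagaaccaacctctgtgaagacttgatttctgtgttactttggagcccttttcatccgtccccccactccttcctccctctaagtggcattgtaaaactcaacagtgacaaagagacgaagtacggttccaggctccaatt

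The table gave 11648801 to 25101868 fragments per library, and 100% of its values came back as whole fragments within a tolerance of 0.01. A single noncoding RNA gene, Gm23935, took 28.99% of summed FPKM in control hemin replicate 1, 21.05% in KO-labelled hemin replicate 2 and 16.8% in control vehicle replicate 1. Hmox1, the gene named in the label, stood at 7.62, 6.85 and 7.90 FPKM (fragments per kilobase of gene, scaled by a factor for each library) in control colonoids with vehicle and at 503, 483 and 382 with hemin. Colonoids labelled KO had 3.14, 2.11 and 2.31 with vehicle but 1279, 1393 and 1271 with hemin, so that its transcript was lower under vehicle and higher under hemin than in controls, and they are called KO-labelled below. Whether the counted exons include the deleted part of Hmox1 is not given in the sources used here, so its level does not settle the label. Markers of epithelium were high in every library (summed level of 9 genes 6125 to 10670 FPKM). Of 13 mesenchyme markers, 12 stayed under 1 FPKM in every library, with Dcn and Col1a2 at 0 and sums of 0.504 to 2.44 FPKM. Endothelial and enteric nervous system markers were all under 1 FPKM, and 4 of 5 immune markers were too. The remaining immune marker had a log2 fold change with hemin of 0.37 in controls and 1.14 in KO-labelled colonoids. Sums of the 5 were 0.808 to 5.20 FPKM.

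Of the 47 members, 26 reached a mean of 1 FPKM in at least 1 group, 9 were detected below that, 6 never exceeded 3 fragments in a library, and 6 had no fragment in any library. The 24 members that reached 1 FPKM in at least 3 of the 12 libraries entered the tests: 12 of 14 in Hoxa, 9 of 12 in Hoxb, 3 of 11 in Hoxd and none of 10 in Hoxc. A member high in 3 libraries alone passes such a filter through that group, so the counts among the 24 are no support for a difference between groups.

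**Figure D1:**
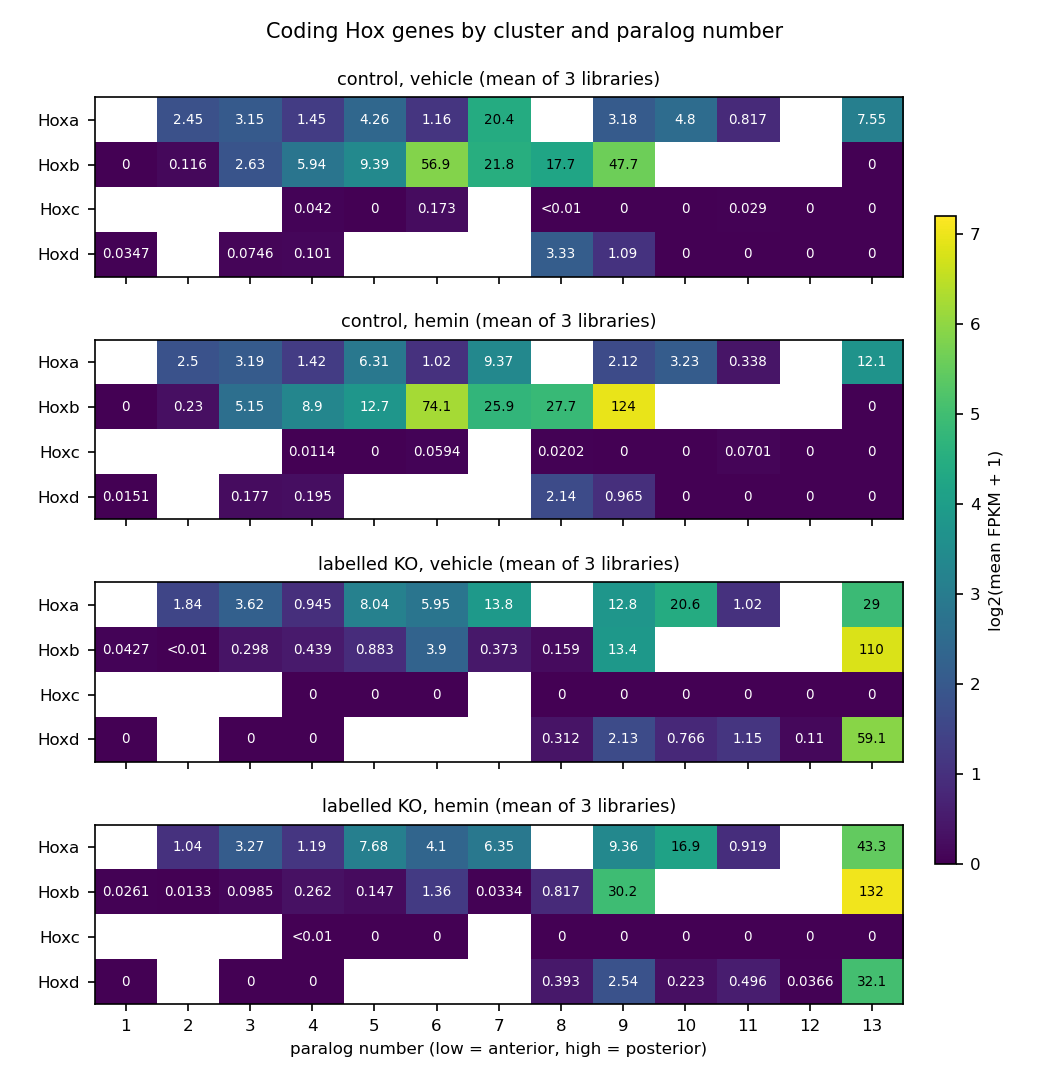
Mean FPKM of coding Hox genes by cluster (rows) and paralog position (columns) in the 4 groups of 3 libraries, printed in each cell; colour is log2(mean FPKM + 1), the 2 rows of Hoxd4 are summed, and white cells hold no gene or one not reported here. In control colonoids the highest means are those of Hoxb6 and Hoxb9, and in KO-labelled colonoids those of Hoxb13, Hoxa13 and Hoxd13, with Hoxb13 at a mean of 109.9 FPKM with vehicle and 131.6 with hemin.

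The 40 coding members together summed to 216.5 ± 7.30 FPKM (SD, n = 3) in control colonoids with vehicle and 291.0 ± 7.39 in KO-labelled colonoids with vehicle. With hemin the sums were 323.8 ± 42.0 and 294.9 ± 2.66. The makeup of these sums differed between genotypes. Coding paralogs 9 to 13 held 30.1 ± 1.17% of all coding Hox FPKM in controls with vehicle (28.8 to 31.1%) and 44.3 ± 4.22% with hemin (40.8 to 49.0%). KO-labelled colonoids had 85.9 ± 0.514% (85.4 to 86.3%) and 90.7 ± 0.515% (90.4 to 91.3%). No library of either genotype came near the range of the other, and these shares do not depend on how libraries are scaled. Paralogs 4 to 8 held 65.9% and 52.1% in controls and 11.97% and 7.57% in KO-labelled colonoids. Weighted by FPKM, the mean paralog number was 7.198 (vehicle) and 7.55 (hemin) in controls and 11.33 and 11.53 in KO-labelled colonoids. In RNA from whole colonoids, fewer cells of a type and less RNA per cell cannot be told apart.

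**Figure D2:**
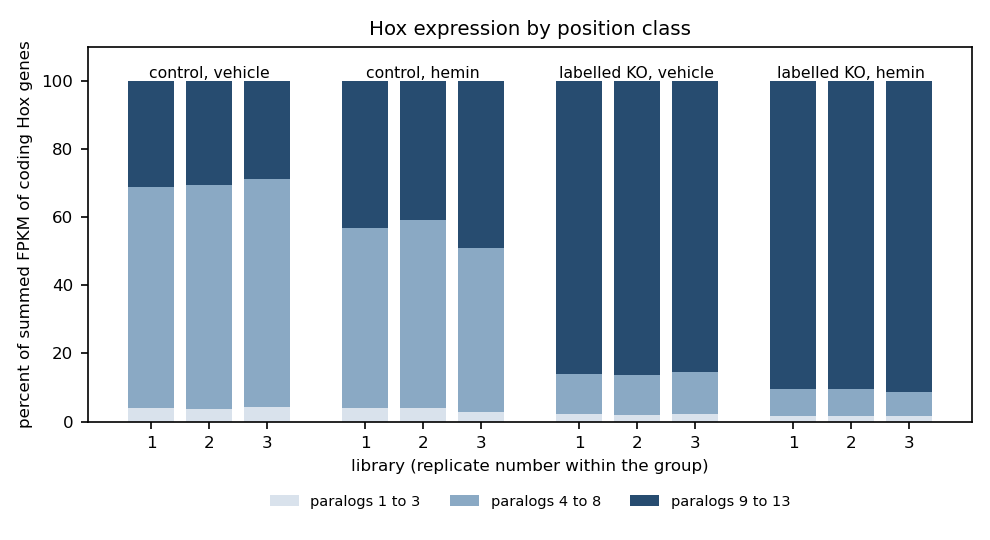
Share of all coding Hox FPKM (vertical axis, percent) in each of the 12 libraries held by paralogs 1 to 3, 4 to 8 and 9 to 13, stacked. Paralogs 9 to 13 held 28.8 to 49.0% in the 6 control libraries and 85.4 to 91.3% in the 6 KO-labelled libraries.

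The clusters contributed unequally. Hoxb held 74.9% of coding Hox FPKM in controls with vehicle and 85.9% with hemin, against 44.5% and 55.8% in KO-labelled colonoids. Hoxa held 22.8% and 12.97% in controls and 33.7% and 32.1% in KO-labelled colonoids. The share of Hoxd was 2.14% and 1.10% in controls and 21.9% and 12.1% in KO-labelled colonoids. Within each of these clusters the posterior end weighed more in KO-labelled colonoids. Paralogs 9 to 13 made up 29.4% of coding Hoxb FPKM in controls with vehicle and 95.3% in KO-labelled colonoids with vehicle, 33.2% and 64.8% of Hoxa, and 23.4% and 99.5% of Hoxd. Markers of gut region differed between genotypes as well. The sum of 10 small intestine markers was 77.1 to 85.1 FPKM in controls with vehicle and 19.5 to 21.7 in KO-labelled colonoids, with Fabp2, a fatty acid binding protein of enterocytes, at 44.9 to 55.5 and 2.09 to 3.14. Fabp2 and Alpi were past the fold lower. Apoa1 stood at 1.64 to 2.45 against 0 to 0.0981 FPKM in controls and Lyz1 at 2.54 to 2.91 against 0.278 to 0.720, and neither would have passed the filter without the KO-labelled libraries. The sum of 6 colon markers was also lower, 1901 to 1959 FPKM against 2186 to 2422 in controls, and 3 of the 6 were past the fold higher. Among those the water channel Aqp8 stood at 38.2 to 47.6 and 408 to 445, and the carbonic anhydrase Car4 at 1.45 to 2.15 and 50.7 to 64.0. No more than these 3 colon markers had a log2 fold change above 0 with vehicle, and 0 were past the fold lower. With hemin 2 of the 6 were past the fold higher and 1 lower in KO-labelled colonoids. The part of the gut markers in the result was not tested.

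The Hoxb cluster spans 173.9 kb of chromosome 11 (chr11:96194316-96368256, GRCm38), with Hoxb13 at its 5′ end, 74.0 kb away from Hoxb9. Hoxb13 was at 0 FPKM in the 6 control libraries, at 104, 115 and 111 in KO-labelled colonoids with vehicle and at 134, 128 and 132 with hemin. Not 1 fragment was counted in any control library, and the lowest KO-labelled library was at 104 FPKM, so the groups lay far apart. Against a floor of 3 fragments per library, the mean of KO-labelled colonoids was at least 1264-fold higher with vehicle and at least 1126-fold higher with hemin. Hoxb9, the next gene along, had the opposite order. Hoxb9 stood at 47.2, 49.9 and 46.1 FPKM in controls with vehicle, 129, 127 and 115 in controls with hemin, 13.1, 13.2 and 14.01 in KO-labelled colonoids with vehicle and 27.8, 34.1 and 28.8 with hemin. The lowest control library stood above the highest KO-labelled library under both treatments, by a ratio of means of 3.55 with vehicle and 4.09 with hemin. Hemin-treated libraries lay above vehicle-treated libraries in each genotype.

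From Hoxb8 to Hoxb3, through the middle of the cluster, controls were high and KO-labelled colonoids low. Hoxb8 measured 16.2, 17.5 and 19.4 FPKM (control, vehicle), 28.7, 30.6 and 23.7 (control, hemin), 0.279, 0.132 and 0.0676 (KO-labelled, vehicle) and 0.632, 1.29 and 0.529 (KO-labelled, hemin). KO-labelled colonoids with vehicle had 12, 6 and 3 fragments of Hoxb8, and those with hemin 24, 80 and 20, with no overlap. Hoxb7 was at 23.1, 20.2 and 22.1 FPKM with vehicle and 27.5, 28.3 and 21.8 with hemin in controls, and at 0.436, 0.375 and 0.308 and 0, 0.0551 and 0.0451 in KO-labelled colonoids. The 3 KO-labelled libraries with hemin held 3 fragments of Hoxb7 in all, and with vehicle the ratio of control to KO-labelled means was 58.6. Hoxb6 stood at 53.2, 60.3 and 57.1 FPKM in controls with vehicle, 79.1, 89.9 and 53.4 in controls with hemin, 3.83, 3.89 and 3.99 in KO-labelled colonoids with vehicle and 1.45, 1.34 and 1.28 with hemin. Hoxb6 was the most abundant member in controls with vehicle. Its mean was 14.6-fold higher in controls than in KO-labelled colonoids with vehicle and 54.7-fold higher with hemin. Control hemin replicate 3 was the lowest of its group.

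Hoxb5 measured 8.73, 9.47 and 9.98 FPKM (control, vehicle), 13.5, 12.9 and 11.7 (control, hemin), 0.988, 0.831 and 0.831 (KO-labelled, vehicle) and 0.125, 0.0915 and 0.225 (KO-labelled, hemin). The ratio of control to KO-labelled means of Hoxb5 was 10.6 with vehicle and 86.3 with hemin, and in KO-labelled colonoids its fragments went from 124 over the vehicle libraries to 20 over the hemin libraries. Hoxb4 was at 4.96, 6.86 and 5.98 FPKM with vehicle and 9.77, 10.6 and 6.305 with hemin in controls, and at 0.405, 0.496 and 0.417 and 0.298, 0.215 and 0.272 in KO-labelled colonoids. The ratios for Hoxb4 were 13.5 and 34.0, and control hemin replicate 3 again lay below its 2 partners. Hoxb3 stood at 2.02, 2.49 and 3.37 FPKM in controls with vehicle, 6.19, 6.35 and 2.92 in controls with hemin, 0.345, 0.367 and 0.182 in KO-labelled colonoids with vehicle and 0.114, 0.04999 and 0.131 with hemin. For Hoxb3 the ratios were 8.82 and 52.3. Further 3′, Hoxb2 stood at 0.104 to 0.125 FPKM in controls with vehicle and 0.201 to 0.245 with hemin, and at 0 to 0.0400 in KO-labelled colonoids. Hoxb1, the last gene, had no fragment in controls and 5 and 3 fragments in all over the KO-labelled libraries with vehicle and hemin, a level at or under the floor.

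**Figure D3:**
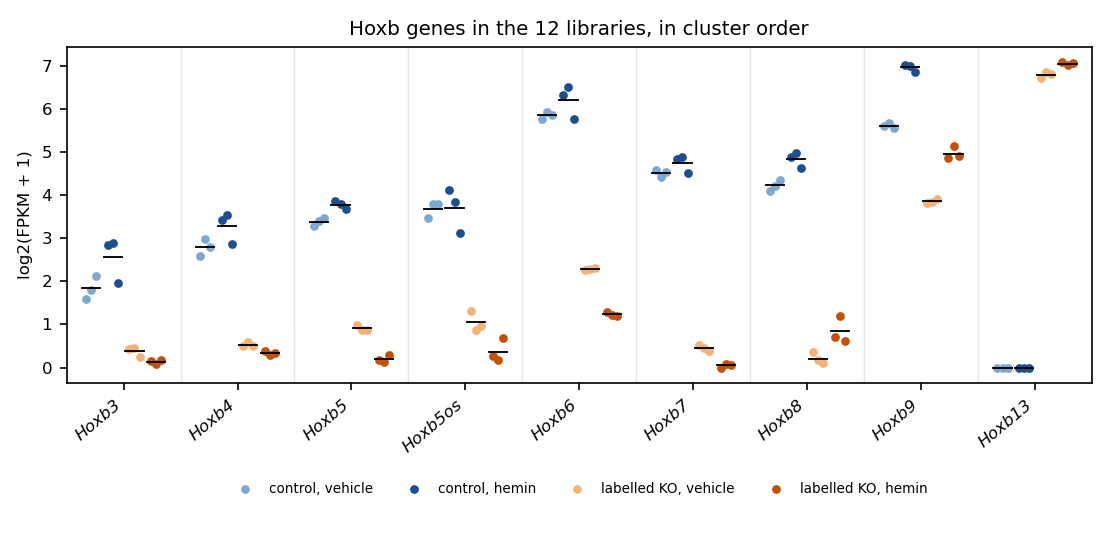
log2(FPKM + 1) of 9 Hoxb members in the 12 libraries (points) with the mean of each group of 3 (bars), from Hoxb13 at the 5′ end to Hoxb3. Hoxb13 is at 0 in all 6 control libraries, whereas Hoxb3 to Hoxb9 are higher in controls; in KO-labelled colonoids Hoxb9 is the single member of that stretch with means above 10 FPKM, 13.4 with vehicle and 30.2 with hemin.

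The Hoxa cluster spans 112 kb of chromosome 6. Hoxa2 to Hoxa5 and Hoxa7 were detected in both genotypes, and the 5′ end of the cluster was higher in KO-labelled colonoids. Hoxa13 measured 8.22, 6.91 and 7.54 FPKM (control, vehicle), 11.6, 10.7 and 13.9 (control, hemin), 29.6, 28.7 and 28.7 (KO-labelled, vehicle) and 41.01, 44.4 and 44.5 (KO-labelled, hemin). Hoxa13, the paralog of group 13 that controls did express, was 3.84-fold higher in KO-labelled colonoids with vehicle and 3.59-fold higher with hemin, without overlap. Hoxa10 was at 4.41, 5.28 and 4.72 FPKM with vehicle and 3.51, 3.595 and 2.59 with hemin in controls, and at 19.6, 21.3 and 21.1 and 16.2, 16.7 and 17.7 in KO-labelled colonoids. Hoxa10 showed ratios of 4.30 and 5.22. Hoxa9 stood at 3.19, 3.24 and 3.12 FPKM in controls with vehicle, 2.37, 2.05 and 1.93 in controls with hemin, 12.6, 12.6 and 13.02 in KO-labelled colonoids with vehicle and 10.2, 8.84 and 9.05 with hemin. For Hoxa9 they were 4.01 and 4.42. Hoxa6 measured 0.624, 1.61 and 1.25 FPKM (control, vehicle), 1.404, 1.06 and 0.588 (control, hemin), 4.41, 6.16 and 7.27 (KO-labelled, vehicle) and 4.37, 4.81 and 3.11 (KO-labelled, hemin). Hoxa6 was 5.13-fold higher with vehicle and 4.02-fold higher with hemin in KO-labelled colonoids.

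Hoxa7, which lies between Hoxa6 and Hoxa9, went against its neighbours. Hoxa7 was at 18.6, 21.1 and 21.5 FPKM with vehicle and 10.9, 11.6 and 5.59 with hemin in controls, and at 13.9, 13.7 and 13.9 and 6.86, 6.09 and 6.11 in KO-labelled colonoids. KO-labelled colonoids had less of it than controls with vehicle, and hemin-treated libraries lay below vehicle-treated libraries in each genotype. It shares 586 exonic bases with the antisense gene Hoxaas3, at means of 2.44 and 3.75 FPKM in controls and 3.00 and 2.71 in KO-labelled colonoids, and fragments from the overlap cannot be told apart. Hoxa5 stood at 4.59, 3.77 and 4.42 FPKM in controls with vehicle, 7.05, 6.26 and 5.61 in controls with hemin, 7.37, 7.74 and 9.02 in KO-labelled colonoids with vehicle and 7.29, 8.33 and 7.43 with hemin. With vehicle, Hoxa5 was higher in every KO-labelled library than in any control library. Hoxa3 measured 3.01, 3.25 and 3.17 FPKM (control, vehicle), 3.41, 3.92 and 2.25 (control, hemin), 3.29, 3.79 and 3.78 (KO-labelled, vehicle) and 3.095, 3.15 and 3.57 (KO-labelled, hemin). Hoxa2 was at 2.77, 2.04 and 2.54 FPKM with vehicle and 2.86, 2.91 and 1.74 with hemin in controls, and at 2.07, 1.47 and 1.97 and 1.41, 0.934 and 0.785 in KO-labelled colonoids. Hoxa3, an anterior gene of the cluster, overlapped between genotypes with hemin, and Hoxa2 was lowest in KO-labelled colonoids with hemin. Hoxa4 stood at 1.22, 1.25 and 1.87 FPKM in controls with vehicle, 1.26, 1.38 and 1.61 in controls with hemin, 1.11, 1.05 and 0.671 in KO-labelled colonoids with vehicle and 1.26, 1.25 and 1.05 with hemin. All 12 libraries of Hoxa4 lay between 0.671 and 1.87 FPKM. Hoxa11 lay between 0.225 and 1.15 FPKM, where the control libraries were at 0.875, 0.844 and 0.732 with vehicle and 0.345, 0.444 and 0.225 with hemin and the KO-labelled libraries at 1.15, 0.936 and 0.987 and 1.12, 0.7805 and 0.853.

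The Hoxd cluster spans 96.83 kb of chromosome 2 (chr2:74668310-74765142) and was split at Hoxd8. Hoxd13 was at 0 FPKM in the 6 control libraries, at 59.7, 59.7 and 57.98 in KO-labelled colonoids with vehicle and at 31.4, 33.6 and 31.2 with hemin. Hoxd13, like Hoxb13, had no fragment in controls, and its mean in KO-labelled colonoids was at least 765-fold higher with vehicle and at least 309-fold higher with hemin. Hoxd11 was at 0 FPKM in the 6 control libraries, at 0.697, 1.37 and 1.38 in KO-labelled colonoids with vehicle and at 0.3297, 0.696 and 0.463 with hemin. Hoxd10 and Hoxd12 followed the same order at lower levels. Hoxd10 stood at 0.637 to 0.876 FPKM in KO-labelled colonoids with vehicle and 0.0936 to 0.382 with hemin, and Hoxd12 at 0.0703 to 0.145 and 0 to 0.0550, both with no fragment in controls. Hoxd9 measured 0.738, 1.12 and 1.397 FPKM (control, vehicle), 0.739, 0.752 and 1.403 (control, hemin), 1.92, 2.44 and 2.03 (KO-labelled, vehicle) and 2.67, 1.77 and 3.198 (KO-labelled, hemin). Hoxd9 was 1.96-fold higher in KO-labelled colonoids with vehicle and 2.64-fold higher with hemin. Hoxd8 was at 3.42, 2.94 and 3.61 FPKM with vehicle and 1.92, 2.28 and 2.21 with hemin in controls, and at 0.357, 0.211 and 0.368 and 0.329, 0.341 and 0.508 in KO-labelled colonoids. Here the order turned, and Hoxd8 was 10.7-fold higher in controls with vehicle and 5.45-fold higher with hemin. Hoxd1, Hoxd3 and both rows of Hoxd4 had no fragment in any KO-labelled library and 0 to 0.266 FPKM in controls.

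**Figure D4:**
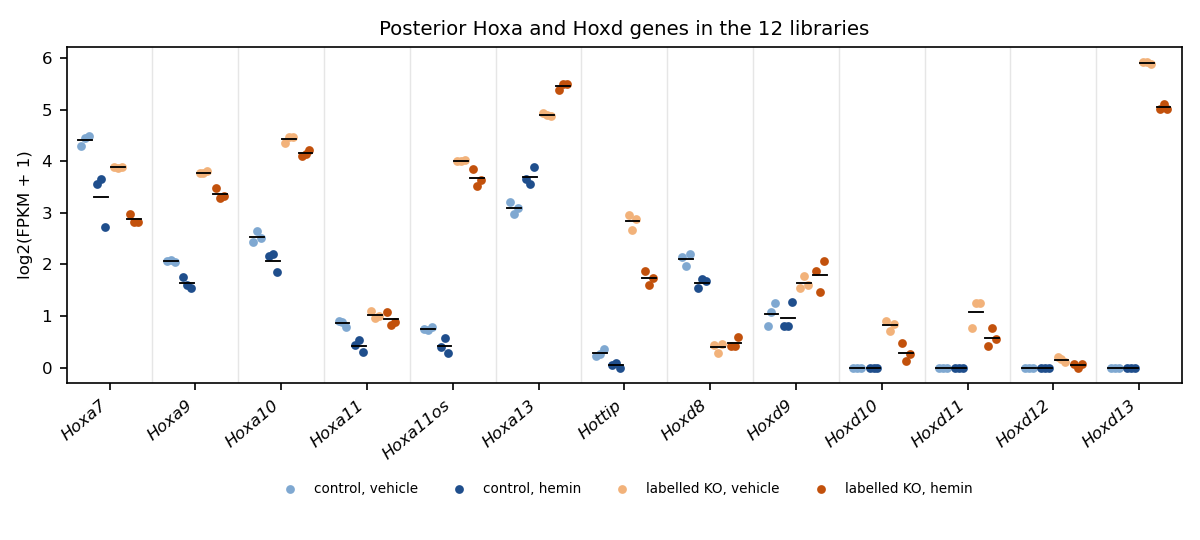
log2(FPKM + 1) of Hoxa and Hoxd members and of the noncoding Hoxa11os and Hottip in the 12 libraries (points), with the mean of each group of 3 (bars). With vehicle, Hoxa9, Hoxa10, Hoxa13, Hoxa11os and Hottip and Hoxd9 to Hoxd13 are higher in KO-labelled colonoids, while Hoxa7 and Hoxd8 are higher in controls; with hemin, Hoxa7 and Hoxd12 overlap.

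Hoxc was close to silent. The cluster spans 115.8 kb of chromosome 15 (chr15:102921103-103036852), and Hoxc5, Hoxc9, Hoxc10, Hoxc12, Hoxc13 and Hotair had no fragment in any of the 12 libraries. Hoxc4, Hoxc6, Hoxc8 and Hoxc11 reached at most 0.277 FPKM in controls, and KO-labelled colonoids held 1 fragment of the cluster in all, of Hoxc4 with hemin. The summed mean was 0.251 FPKM in controls with vehicle and 0 in KO-labelled colonoids with vehicle. At these depths a transcript under 3 fragments in a library cannot be told from none, and such floors cover counting error alone.

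Most antisense and noncoding members were ordered like the coding genes beside them. Hoxa11os stood at 0.671, 0.666 and 0.734 FPKM in controls with vehicle, 0.314, 0.495 and 0.223 in controls with hemin, 15.01, 15.04 and 15.4 in KO-labelled colonoids with vehicle and 13.5, 10.4 and 11.5 with hemin. Hoxa11os, transcribed opposite to Hoxa11, was 22.0-fold higher in KO-labelled colonoids with vehicle and 34.3-fold higher with hemin, while its coding partner stood at 0.732 to 0.875 and 0.936 to 1.15 FPKM with vehicle. The 2 genes overlap over 800 exonic bases, 26.03% of Hoxa11os and 34.98% of Hoxa11, and since the sources do not say whether reads kept their strand, fragments from the overlap cannot be told apart. On the same strand, 21.61% of the exonic bases of Hoxa11os are shared with other genes. Hottip measured 0.169, 0.203 and 0.278 FPKM (control, vehicle), 0.0305, 0.0587 and 0 (control, hemin), 6.799, 5.38 and 6.38 (KO-labelled, vehicle) and 2.68, 2.02 and 2.32 (KO-labelled, hemin). Hottip has no exon opposite another gene of the annotation, but 25.25% of its exonic bases are shared with other genes on the same strand. It was 28.6-fold higher in KO-labelled colonoids with vehicle. The control libraries given vehicle had 8, 10 and 11 fragments of it and those given hemin 1, 2 and 0. Hotairm1 was at 1.42, 1.43 and 1.21 FPKM with vehicle and 1.71, 4.04 and 1.17 with hemin in controls, and at 1.91, 1.69 and 1.68 and 1.56, 1.37 and 2.04 in KO-labelled colonoids. Hotairm1, at the other end of Hoxa, was higher in KO-labelled libraries with vehicle and overlapped with hemin, where control replicate 2 stood above the rest. In Hoxb the order was that of the middle genes. Hoxb5os stood at 10.02, 12.9 and 12.8 FPKM in controls with vehicle, 16.2, 13.2 and 7.75 in controls with hemin, 1.49, 0.831 and 0.939 in KO-labelled colonoids with vehicle and 0.1996, 0.122 and 0.601 with hemin. Hoxb5os, which shares 100 exonic bases with Hoxb5, was 10.9-fold higher in controls with vehicle. Hoxb3os stood at 0.208 to 0.417 FPKM in controls and 0 to 0.0332 in KO-labelled colonoids, but 76.2% of its exonic bases lie opposite Hoxb2 and Hoxb3. Hoxd3os1 stood at 0.118 to 0.417 and 0 to 0.0740.

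On the log2(FPKM + 1) scale, which understates the change of low genes, 8 of the 24 members were more than 1 higher in KO-labelled than in control colonoids with vehicle and 9 more than 1 lower. The counts were 8 and 9 with hemin too. Over all 12740 genes that passed the filter, 3.63% were past this size higher and 3.39% lower with vehicle, and 3.27% and 3.13% with hemin. Since the family was put forward for these differences, nothing is read from the counts. The higher members were Hoxb13, Hoxd13, Hoxa13, Hoxa11os, Hoxa10, Hoxa9, Hoxa6 and Hottip, and the lower members were Hoxd8, Hoxb5os and Hoxb3 to Hoxb9.

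The response to hemin was tested in each genotype, with a gene called changed at an adjusted p under 0.05 and a log2 fold change beyond 1 (limma on log2(FPKM + 1), Benjamini-Hochberg over 12740 genes). In control colonoids Hoxb9 rose and Hoxa7 fell, 1 member of 24 in each direction, where 2.17% of all genes were called higher and 5.93% lower. Hoxb9 rose by a log2 fold change of 1.35 (SE 0.0794, adjusted p = 2.84e-07), a ratio of means of 2.59. Hoxa7 fell by 1.10 on the log2 scale (SE 0.195, adjusted p = 0.000776). The call for Hoxa7 rested on control hemin replicate 3, the lowest of its group, since without it the log2 fold change was -0.80. The median member moved by 0.00. The median gene, which the deposited scale keeps nearly equal between libraries, moved by -0.01.

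At the adjusted p alone, 7 members stood higher and 5 lower with hemin in controls, where 23.2% of all genes were higher and 26.7% lower. The higher 6 beside Hoxb9 stayed under the required fold: Hoxb3 (log2 fold change 0.72, adjusted p = 0.0183), Hoxb8 (0.61, 0.0062), Hoxa13 (0.61, 0.000202), Hoxb4 (0.49, 0.0229), Hoxa5 (0.47, 0.00226) and Hoxb5 (0.40, 0.00157). The lower 4 beside Hoxa7 were Hoxa10 (-0.46, 0.00227), Hoxd8 (-0.46, 0.00221), Hoxa9 (-0.43, 0.000428) and Hoxa11os (-0.34, 0.0127). Hoxb6, the most abundant middle gene, had a log2 fold change of 0.35 (adjusted p = 0.0754).

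In KO-labelled colonoids Hoxb9 rose too, and Hoxb6, Hoxa7 and Hottip fell. They were 1 member higher and 3 lower of 24, where 4.87% of all genes were called higher and 8.07% lower. Rescaled to TPM, which gives every library the same sum and moved the median gene itself by -0.31, 1 member was higher (Hoxb8 in place of Hoxb9) and 7 were lower, where 3.16% of all genes were called higher and 18.3% lower. Hoxb9 rose by a log2 fold change of 1.11 (SE 0.0794, adjusted p = 5.97e-07), and under that rescaling it was not called (0.81). Hoxb6 fell by 1.06 (SE 0.148, adjusted p = 0.000101), from a mean of 3.90 ± 0.0817 FPKM to 1.36 ± 0.0870 (SD, n = 3). Hottip fell by 1.10 (SE 0.0996, adjusted p = 3.42e-06), to 0.378 of its vehicle mean. Hoxa7 fell by 1.02 (SE 0.195, adjusted p = 0.000956), close to the required size, and was not called when KO-labelled hemin replicate 2 or 3 was left out (log2 fold change -0.99 at the least). The median member moved by -0.26, against 0.00 for the median gene, which the deposited scale keeps nearly equal between libraries.

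At the adjusted p alone, 4 members were higher and 11 lower with hemin in KO-labelled colonoids, where 29.9% of all genes were higher and 30.4% lower. Hoxd13 was the most abundant of the 11, with a log2 fold change of -0.86 (SE 0.0508, adjusted p = 1.42e-07), under the required fold. Its mean was 59.2 ± 1.01 FPKM with vehicle and 32.1 ± 1.33 with hemin, a ratio of 0.542. Its detected paralogs of group 13 had the opposite sign: Hoxa13 had a log2 fold change of 0.56 (adjusted p = 0.000241) and Hoxb13 of 0.26 (SE 0.0513, adjusted p = 0.00121). Rescaled to TPM, Hoxb13 came to -0.08. Further values under the fold were Hoxb8 at 0.63 (0.00406), Hoxb5 at -0.72 (1.57e-05), Hoxb5os at -0.68 (0.0274), Hoxa2 at -0.48 (0.0265), Hoxb7 at -0.41 (0.00334), Hoxa9 at -0.41 (0.00039), Hoxa11os at -0.34 (0.00904) and Hoxa10 at -0.28 (0.0283), each with the adjusted p in parentheses. Those values are on the log2(FPKM + 1) scale, which understates the change of low genes. A fit to the recovered fragments (limma-voom) put the low Hoxb members among them past the fold, on few fragments. It gave Hoxb5 -2.66 (adjusted p = 3.08e-05), Hoxb8 2.49 (0.00253), Hoxb7 -3.00 (0.00231) and Hoxb5os -1.99 (0.0345). Hoxa2, Hoxa9, Hoxa10 and Hoxa11os stayed under the fold in it. Among members under the filter, the same fit gave Hoxd10 -2.01 (adjusted p = 0.00100) and Hoxd11 -1.13 (0.00662), and in controls Hoxa11 -1.27 (0.00999).

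**Figure D5:**
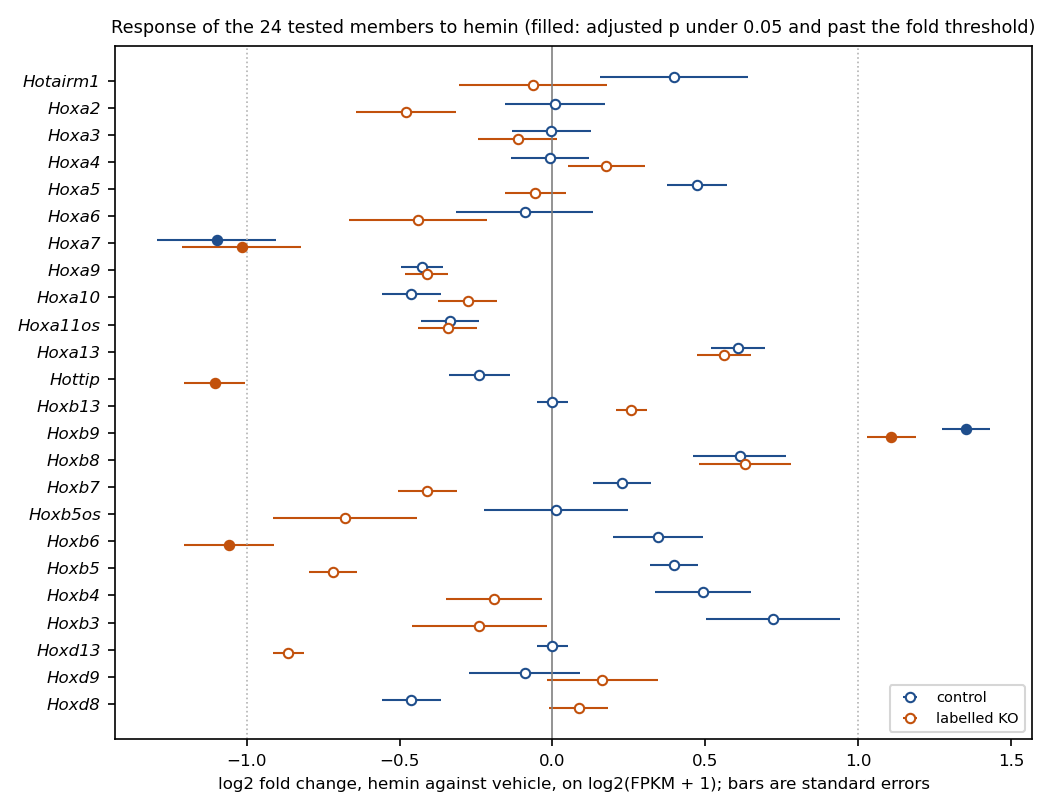
Log2 fold change of hemin against vehicle on the log2(FPKM + 1) scale, with its standard error, for the 24 tested members in control and KO-labelled colonoids; filled points were called (adjusted p under 0.05 and beyond 1). Hoxb9 is high and Hoxa7 low in both genotypes, while Hoxb3 to Hoxb7 lie above 0 in controls and below 0 in KO-labelled colonoids.

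The difference of the hemin response between genotypes was called by limma for Hoxb6 and Hoxb5. By this test 0 members were higher and 2 lower, where 2.57% of all genes were higher and 2.56% lower. At an unadjusted p under 0.05 the counts were 2 and 8 (all genes 19.4% and 16%), and limma-voom called 0 and 3 (all genes 2.56% and 4.24%), with Hoxb7 the third (-3.24, adjusted p = 0.00581) on 3 fragments in all in KO-labelled colonoids with hemin. With a pseudocount of 0.1 or rescaled to TPM, Hoxb7 was called lower too, together with Hoxb3 and Hoxb4 under the pseudocount and Hoxd13 under TPM. For Hoxb6 the response in KO-labelled colonoids minus that in controls was -1.40 (SE 0.210, adjusted p = 0.000707), and for Hoxb5 it was -1.11 (SE 0.111, adjusted p = 4.79e-05). Between hemin and vehicle, 52.4% of all genes tested did not overlap in controls and 74.4% in KO-labelled colonoids. The control libraries of Hoxb6 and Hoxb5 with hemin lay, with the exception of Hoxb6 in replicate 3, above the vehicle libraries. Every KO-labelled library with hemin lay below every vehicle library. The neighbours had differences of the same sign: Hoxb3 -0.96 (adjusted p = 0.0462), Hoxb4 -0.68 (0.0474) and Hoxb7 -0.64 (0.00589), under the required fold, and Hoxb5os -0.69 (0.167). Hoxb8 and Hoxb9, at the 5′ side of that stretch, had differences of 0.02 (SE 0.214, adjusted p = 0.969) and -0.24 (SE 0.112, adjusted p = 0.148). In limma-voom the difference of Hoxb8 was 1.84 (SE 0.606, adjusted p = 0.0525), with means in KO-labelled colonoids of 0.159 FPKM with vehicle and 0.817 with hemin. At the adjusted p alone, 2 members were higher and 8 lower, where 13.3% of all genes were higher and 10.5% lower. They took in Hoxa5 (-0.53, adjusted p = 0.019) and Hoxd8 (0.55, 0.0141). Hoxb13 and Hoxd13 were counted too, but at 0 in every control library their difference only repeats the response in KO-labelled colonoids. For Hottip the difference was -0.86 (adjusted p = 0.00123) on this scale, and its sign turned in limma-voom on the recovered fragments (1.16, adjusted p = 0.331), where the log2 fold change with hemin was -2.58 in controls and -1.43 in KO-labelled colonoids. For Hoxa7, Hoxa9 and Hoxa13 the differences were 0.08, 0.02 and -0.04 (adjusted p = 0.873, 0.936 and 0.844).

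Other transcribed rows within the clusters and beside them are named here after their values were seen. Mir196a-1, a gene of 102 bases whose reads need not come from the mature microRNA, had means of 77.9 FPKM (vehicle) and 51.8 (hemin) in controls and of 53.9 and 32.3 in KO-labelled colonoids. Its log2 fold changes with hemin were -0.62 (adjusted p = 0.0379) and -0.72 (0.0165), under the required fold. Hoxb8, which carries the near-complete match, had log2 fold changes of 0.61 and 0.63 with hemin, also under the fold. On the recovered fragments limma-voom gave Hoxb8 0.64 in controls and 2.49 in KO-labelled colonoids. With vehicle both genes were lower in KO-labelled than in control colonoids. Mir10a stood at 3.86, 2.66 and 5.29 FPKM in controls with vehicle and at 13.55, 3.08 and 0.778 with hemin, on 17, 4 and 1 fragments, so that its mean with hemin rests on replicate 1. It had 3 fragments in all in each KO-labelled group. Beyond Hoxd13, the homeobox gene Evx2 had no fragment in controls and 2.89, 2.83 and 2.49 FPKM in KO-labelled colonoids with vehicle. With hemin it stood there at 0.945, 0.609 and 0.682. It passed the filter through the KO-labelled vehicle libraries alone, so its test is not given. Ttll6, the neighbour beyond Hoxb13 and an enzyme of tubulin modification, had means of 0.459 and 0.297 FPKM in controls and 4.29 and 2.02 in KO-labelled colonoids. Prac1 and Prac2 are not analysed here.

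Of 68 genes listed as cofactors and regulators of Hox genes (TALE homeodomain partners, caudal factors, Polycomb and trithorax proteins, retinoic acid signalling and other inputs), 47 were tested, and Evx2, which passed the filter as described above, is left out of the counts. With hemin 1 of the others was called higher and 1 lower in each genotype, Aldh1a1 and Aldh1a3. Of all genes 2.17% were called higher and 5.93% lower in controls, and 4.87% and 8.07% in KO-labelled colonoids. The median log2 fold change of the 47, Evx2 included, was -0.17 in controls and -0.28 in KO-labelled colonoids, and that of the 21 Polycomb genes -0.15 and -0.35. That of all genes, which the deposited scale keeps nearly equal between libraries, was -0.0125 and -0.0019. Aldh1a1, an enzyme that makes retinoic acid, stood at 33.0, 34.0 and 30.9 FPKM in controls with vehicle and 243, 233 and 306 with hemin. In KO-labelled colonoids it stood at 3.05, 3.14 and 2.70 and at 57.3, 54.9 and 55.9. It rose by a log2 fold change of 2.95 (adjusted p = 3.73e-09) in controls and 3.85 (adjusted p = 2.16e-10) in KO-labelled colonoids. Aldh1a3, which does the same chemistry, fell by 1.61 (adjusted p = 1.53e-07) and by 1.08 (adjusted p = 1.41e-06).

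Cdx2, the caudal factor of intestinal identity, was not called with hemin and is given for its levels. Cdx2 measured 175, 217 and 214 FPKM (control, vehicle), 225, 245 and 142 (control, hemin), 47.3, 50.5 and 48.1 (KO-labelled, vehicle) and 88.2, 70.8 and 87.8 (KO-labelled, hemin). The control libraries all stood above the KO-labelled libraries, and control hemin replicate 3 was the lowest of the controls. In KO-labelled colonoids the log2 fold change of Cdx2 with hemin was 0.74 (adjusted p = 0.00426), under the required fold. Markers of gut region also changed with hemin in both genotypes. The difference of the response between genotypes was called higher for 1 and lower for 3 of 6 colon markers, with a median of -0.98. It was called for 0 of 4 small intestine markers tested. Over all genes 2.57% were called higher and 2.56% lower. In KO-labelled colonoids, of 6 colon markers 1 was called higher, the carbonic anhydrase Car1 (log2 fold change 1.11, adjusted p = 5.97e-05), and 2 lower, Car4 (-3.43, 7.68e-08) and the mucin Muc2 (-3.32, 1.9e-09). Of 4 small intestine markers tested, 3 were called lower: Alpi, Fabp2 and 1 that passed the filter through the KO-labelled libraries. The log2 fold change of 1 was above 0. Of all genes 4.87% were called higher and 8.07% lower, and in controls 2.17% and 5.93%. In controls Car1 (1.18, 6.06e-05) was called higher and Alpi (-1.73, 1.27e-05) and Aqp8 (adjusted p = 1.01e-05) lower, Aqp8 with a mean of 10.3 FPKM with hemin against 44.0 with vehicle. The sum of the colon markers was 1901 to 1959 FPKM with vehicle and 3144 to 3910 with hemin in KO-labelled colonoids, and 2186 to 2422 and 4106 to 6491 in controls. Their part in the Hox responses was not tested.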

How the data were processed

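Poly(A) RNA of 12 colonoid libraries, 3 in each of 4 groups, was sequenced. The authors deposited 1 table of FPKM values (fragments per kilobase of gene, scaled by a factor for each library), made per the labels with fastp, HISAT2 2.0.5 and featureCounts 1.5.0-p3 on mm10. Over genes detected in all libraries, the median ratio of a library to their geometric mean was 1 in each library. The deposited scale thus keeps the median gene nearly equal between libraries. Strandedness is not given in the sources used here. Low values are whole multiples of 1 fragment, so fragments were recovered from gene lengths, and the 3 control libraries with hemin were the shallowest (11648801 to 11935604). Genes at 1 FPKM or more in at least 3 of 12 libraries (12740 of 54532) were fitted on log2(FPKM + 1) with limma 3.58.1 (R 4.3.3) as 4 group means with a trended prior, with Benjamini-Hochberg adjustment over all of them. Hemin was compared with vehicle in each genotype, and the difference of the responses was tested as an interaction. Levels of 3 fragments or fewer in a library were read as a floor.

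The members, the regulator and marker lists and the tests were chosen with earlier results of these data known. Values per library were to be given for members with a mean of at least 1 FPKM in a group, and of other genes Hmox1, list genes called with hemin and markers were to be named. Alternatives were a pseudocount of 0.1, no filter, a mean FPKM of 5, TPM, the adjusted p alone, limma-voom on the recovered fragments, no trend, only the groups compared, the replicate block, leaving out each library and, added after seeing the data, TPM without Gm23935. On simulated data (12217 genes), 92.9% of 4-fold and 14% of 2-fold changes were called for hemin in KO-labelled colonoids, and 88.8% and 17% for the interaction. Single genes, 1 member among them, are not reported here, though sums and counts include them. GENCODE M21 matched 46 of 47 members by ID. Figures were drawn with matplotlib 3.10.9 in Python 3.11.15.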

Additional observations from a re-analysis of the deposited data

Results flagged for a closer look

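The hemin response of Hoxb6 differed between genotypes by a test of the difference itself. Its log2 fold change with hemin was 0.35 in control and -1.06 in KO-labelled colonoids, a difference of -1.40 (SE 0.210, limma adjusted p = 0.000707), with 2 of 3 control hemin libraries above every vehicle library and 3 of 3 KO-labelled hemin libraries below every vehicle library. Hoxb5 was the other member, at 0.40 and -0.72, a difference of -1.11 (SE 0.111, limma adjusted p = 4.79e-05), with 3 of 3 libraries on either side. On the recovered fragments limma-voom gave a difference of -1.87 for Hoxb6 (adjusted p = 0.00314) and of -3.09 for Hoxb5 (adjusted p = 7.48e-05). In KO-labelled colonoids Hoxb5 rested on few fragments, 124 over 3 vehicle libraries and 20 over 3 hemin libraries. Separation of libraries was common: 52.4% of all genes tested did not overlap between hemin and vehicle in controls and 74.4% in KO-labelled colonoids.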

How the results depend on the processing

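Of 342 comparisons of a count or cluster sum with an alternative, 307 moved by at most 1.5 times (counts) or by less than the replicate spread (sums). The share of all genes called under the same setting follows each count of members. With a pseudocount of 0.1, members called lower with hemin were 2 in controls (9.92%) and 6 in KO-labelled colonoids (12.3%), members called higher in KO-labelled colonoids were 2 (7%), and the difference was called lower for 5 (4.18%). Rescaled to TPM, 7 were lower in KO-labelled colonoids (18.3%) and the difference was lower for 4 (4.18%); without Gm23935 in the sum these were 7 (15.5%) and 5 (4.65%). On the adjusted p alone, where the fold was dropped, the counts were 7 higher (23.2%) and 5 lower (26.7%) in controls. They were 4 (29.9%) and 11 (30.4%) in KO-labelled colonoids, and 2 (13.3%) and 8 (10.5%) for the difference. On recovered fragments limma-voom gave 4 lower in controls (9.26%), 3 higher (6.39%) and 9 lower (14.4%) in KO-labelled colonoids, and 15 (vehicle) and 16 (hemin) members past the fold lower between genotypes (10.3% and 14% of all genes past the fold); it differs from the test reported in scale and filter at once and took in members under the filter, Hoxd12 among the 9 through its vehicle libraries alone. TPM moved the median gene by -0.19 (hemin, controls), -0.31 (hemin, KO-labelled), -0.11 (difference) and 0.16 (genotype, vehicle). On TPM the log2 ratio of summed Hoxa was -0.43 with hemin in controls, -0.38 with hemin in KO-labelled colonoids (-0.28 without Gm23935) and 1.13 between genotypes with vehicle (1.05); Hoxb was 0.0127 with hemin in KO-labelled colonoids (0.12) and -0.19 between genotypes with vehicle; Hoxd was -1.17 with hemin in KO-labelled colonoids (-1.06); all members were -0.31 with hemin in KO-labelled colonoids (-0.21), against 0.02 as deposited, and 0.57 between genotypes with vehicle (0.49). Leaving out 1 library, calls ranged from 1 to 2 higher (2.18% to 2.42%) and 0 to 1 lower (5.54% to 6.66%) in controls. In KO-labelled colonoids they were 1 higher (4.69% to 5.04%) and 2 to 3 lower (7.23% to 8.26%). For the difference 2 to 3 were lower (1.89% to 2.94%). The log2 ratio of the summed members with hemin in KO-labelled colonoids ranged from -0.0014 to 0.0324, across 0. Without control hemin replicate 3, Hoxb3 was called higher in controls and Hoxa7 was not called (-0.80; adjusted p over its alternatives 7.67e-06 to 0.0167). The replicate numbers did not pair the samples (mean correlation of deviations -0.042 over 18 same-numbered pairs, 0.023 over 36 others). With the replicate block the counts stayed at 1 (2.17%) and 1 (5.9%) in controls and 1 (4.88%) and 3 (8.06%) in KO-labelled colonoids. For the difference they stayed at 0 (2.52%) and 2 (2.5%). Depth limits members at a few fragments in a library, such as Hoxb7 in KO-labelled colonoids with hemin (3 fragments in all).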
